A study of Homo sapiens with 15 samples.

Results

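The DNA replication and S phase genes described here are 44 genes that copy the genome or prepare a cell for doing so. They were chosen by symbol from the 18858 genes of an RNA-seq count table, and all 44 were found in it. The cells were MDA-MB-231, an established line of human breast cancer with mesenchymal traits. They were left untransfected (Control) or received siRNA, namely a non-targeting pool (siControl), a pool against YAP1 (siYAP), a pool against WWTR1, which encodes TAZ (siTAZ), or the pools against both (siYAP+TAZ). Every group held 3 libraries, each from bulk RNA, and the libraries carry numbers from 16 to 30. The siRNA stood at 30 nM per pool and so at 60 nM where both were given, and in siYAP+TAZ the larger amount of siRNA cannot be told apart from the loss of both genes. Knockdown lasted 48 h and was followed by 5 to 6 h on plates coated with gelatin, the matrix that these cells degrade. The question asked here was how the RNA of the replication machinery changed when YAP, TAZ or both were depleted.

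Replication begins with licensing. The origin recognition complex (ORC1 and ORC6 among its subunits), CDC6 and CDT1 load the ring of MCM2 to MCM7 onto DNA, and MCM10, CDC45 and the GINS proteins turn that ring into a working helicase. RPA coats the exposed single strands, polymerase alpha with primase starts each strand, and polymerases delta and epsilon extend it on the sliding clamp PCNA, which the RFC complex loads. Many of these genes are switched on together by E2F transcription factors as a cell passes from G1 into S phase. YAP and TAZ are coactivators of the Hippo pathway that act largely through TEAD factors. Because the RNA came from whole dishes, fewer cells in S phase and less RNA per cell cannot be told apart in any value below.

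The promoter windows of 3 members are printed to show what an E2F-type sequence looks like near the start of such a gene. They are the 250 bases before a RefSeq transcript start in GRCh38.p14, written 5' to 3' on the strand of the gene, with the E2F-type word in capitals (here its reverse complement). The window of POLE, the catalytic subunit of polymerase epsilon, is chr12:132687343-132687592 on the minus strand, and its word begins 18 bases before the start. That of UHRF1, which helps to copy DNA methylation after replication, is chr19:4909251-4909500 on the plus strand, with the word 14 bases before the start. That of PCNA is chr20:5126623-5126872 on the minus strand, with the word 59 bases before the start.
POLE: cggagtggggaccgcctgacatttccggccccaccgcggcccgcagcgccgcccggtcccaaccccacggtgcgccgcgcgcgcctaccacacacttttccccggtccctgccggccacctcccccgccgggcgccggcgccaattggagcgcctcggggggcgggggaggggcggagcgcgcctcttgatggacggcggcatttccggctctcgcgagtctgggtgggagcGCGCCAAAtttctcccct
UHRF1: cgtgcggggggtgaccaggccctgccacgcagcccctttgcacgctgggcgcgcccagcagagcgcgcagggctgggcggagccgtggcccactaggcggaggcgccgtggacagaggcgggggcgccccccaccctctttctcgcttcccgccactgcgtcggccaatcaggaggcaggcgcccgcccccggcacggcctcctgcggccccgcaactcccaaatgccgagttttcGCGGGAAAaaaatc
PCNA: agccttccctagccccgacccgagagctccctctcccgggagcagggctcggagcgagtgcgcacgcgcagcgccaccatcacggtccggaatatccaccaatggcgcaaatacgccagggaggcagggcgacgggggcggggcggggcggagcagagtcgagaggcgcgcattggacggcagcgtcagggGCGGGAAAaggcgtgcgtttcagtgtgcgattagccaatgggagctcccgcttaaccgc
The words searched were TTTCCCGC, TTTCGCGC, TTTGCCGC and TTTGGCGC on both strands, and a RefSeq window was at hand for 37 of the 44 members. At least 1 of the words stood in the windows of 15 of these 37 genes (40.5%), against 5.29% of the 11856 genes of the count table that had a window and 3.88% of all 17100 windows. No E2F-type word overlapped a match of the other motifs searched, and in MCM6 neighbouring E2F-type words overlapped each other. The CCAAT letters were found in 24 of 37 (64.9%), against 40.7% of the genes of the table. The letters CATTCC, the core that TEAD factors are known to bind, were found in 6 of 37 (16.2%, namely GINS1, MCM7, ORC6, POLA2, POLD1 and PRIM1), against 13.3%. These matches describe letters in short windows and are no measurement of binding.

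Total counts per library lay between 18696737 and 30107312, and no member had fewer than 76 reads in any library. YAP1 RNA was at 23.4%, 64.0% and 17.6% of the siControl mean in siYAP libraries 18, 23 and 28, and at 51.8%, 51.0% and 41.5% in siYAP+TAZ libraries 20, 25 and 30. WWTR1 RNA was at 45.8%, 14.1% and 28.8% in siTAZ libraries 19, 24 and 29, and at 62.7%, 62.1% and 71.0% in siYAP+TAZ. Of these targets, WWTR1 in siTAZ had an edgeR adjusted p under the threshold of 0.05 (0.019), whereas YAP1 in siYAP (0.099) and both genes in siYAP+TAZ (0.072 and 0.20) did not. In every siYAP+TAZ library both targets lay below every siControl library, but WWTR1 lay above every siTAZ library. By these counts the target RNA was thus only partly reduced in siYAP, siTAZ and siYAP+TAZ. The study reports efficient knockdown of YAP and TAZ in this line by RT-qPCR and Western blot. Of the markers of the line, VIM, CD44, AXL and CAV1 were abundant in all libraries, PGR lay between 0 and 8.32 normalized counts, and the epithelial marker EPCAM between 244 and 407. ESR1 and CDH1 were not among the genes of the count table. AXL was lower in the siYAP+TAZ libraries (25087 to 26315) than in the siControl libraries (35803 to 38270), as was CAV1 (12973 to 13444 against 15891 to 18516). CAV1 also lay below every siControl library in siTAZ (12550 to 15205). The part of AXL and CAV1 in the results was not tested. The ranges of VIM, CD44, PGR and EPCAM overlapped between siYAP+TAZ and siControl.

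In siYAP+TAZ most of the replication genes fell, each by less than a factor of 2. All 44 had a negative log2 fold change against siControl, and 30 of them fell at an adjusted p of at most 0.05, whereas none rose. Of all genes tested, 50.6% had a negative estimate, 8.39% were called lower and 9.97% higher. The median over the 44 was -0.37 on the log2 scale, or 77.6% of the siControl level, with a range from -0.53 for MCM10 to -0.065 for RFC1, whereas the median over all genes was -0.0048. No member passed the study's pair of thresholds (adjusted p of at most 0.05 and absolute log2 fold change of at least 1), which 3.46% of all genes did. The members are well-counted genes, with a median of 2199 normalized counts against 206 for all genes. Genes averaging 100 normalized counts or more numbered 10640 and included every member, and 14.2% of them were called lower. In 36 of the 44, all siYAP+TAZ libraries lay below all siControl libraries, which was the case for 18.2% of all genes. The exceptions were GINS3, GINS4, RFC1, POLA1, POLA2, TK1, E2F1 and E2F2.
The summed normalized counts of the members were 131278 ± 7569 in siControl, 133714 ± 7279 in Control, 116450 ± 2035 in siYAP, 133187 ± 2651 in siTAZ and 103787 ± 3606 in siYAP+TAZ (SD, n = 3), which puts siYAP at 88.7%, siTAZ at 101% and siYAP+TAZ at 79.1% of siControl. This sum is led by abundant genes such as MCM7 and MCM3. Of the 30 calls, 17 held under all 14 other settings of the analysis, including each siControl and siYAP+TAZ library left out in turn. Leaving out a library of these 2 groups gave between 21 called members (without siControl 27) and 29 (without siYAP+TAZ 30).

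**Figure D1:**
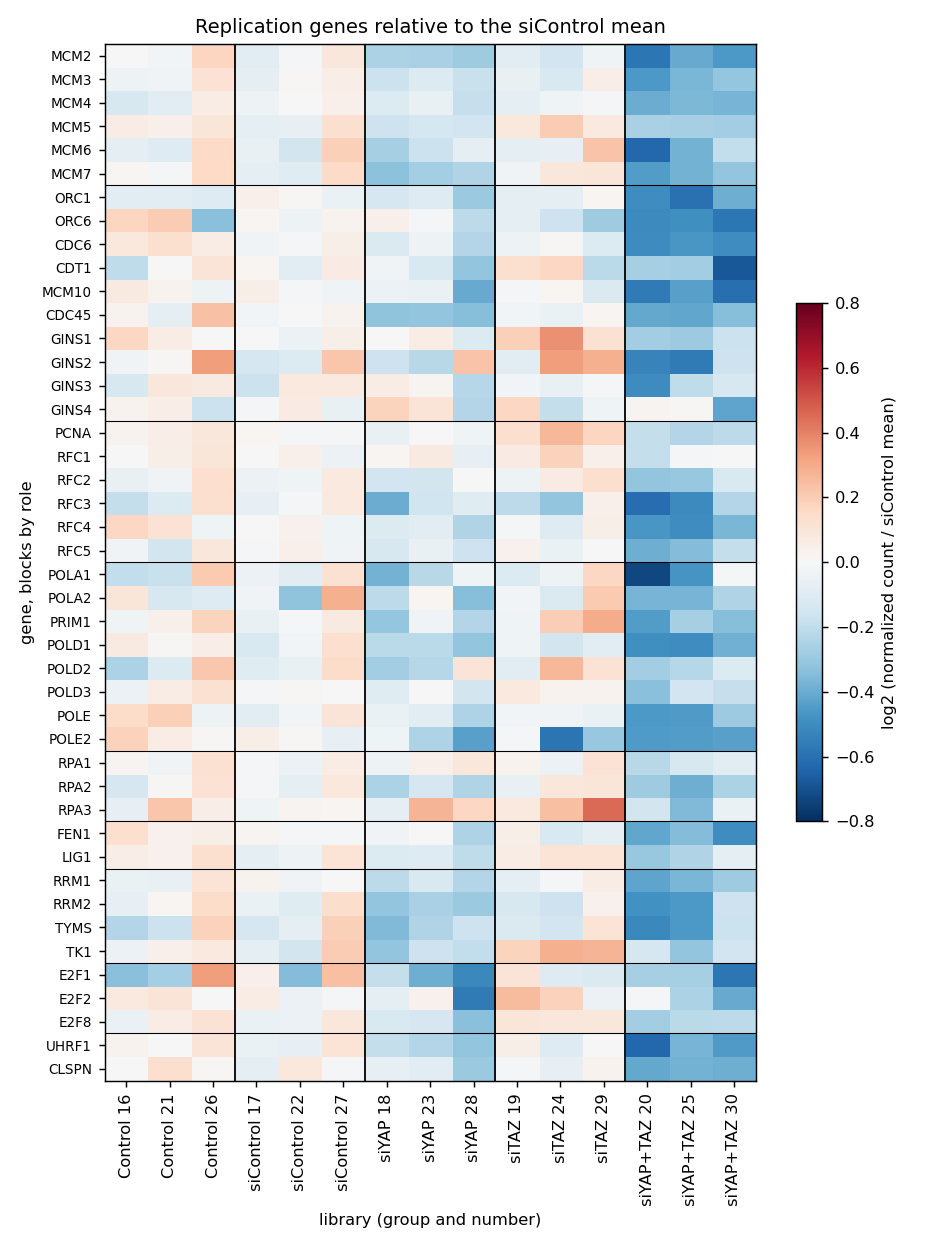
Log2 ratio of the normalized count to the siControl mean for the 44 genes (rows, blocks by role) in the 15 libraries (columns, by group), with blue below and red above the siControl mean. The siYAP+TAZ columns are blue in nearly every row (43 of 44 genes below the siControl mean in each of them), the siYAP columns are paler, and the siTAZ columns hold both colours.

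The 6 genes of the MCM2 to MCM7 helicase ring all fell in siYAP+TAZ, with log2 fold changes between -0.48 and -0.27. MCM2 (chromosome 3, 127598410 to 127622436, plus strand in GRCh38) had 2922, 3059 and 3299 normalized counts in siControl and 2070, 2334 and 2248 in siYAP+TAZ. It had 3081, 3043 and 3492 in Control, 2601, 2588 and 2536 in siYAP and 2919, 2783 and 3022 in siTAZ. The siYAP+TAZ libraries were thus the lowest of all, the siYAP libraries lay between them and siControl without overlap, and siTAZ overlapped siControl (log2 fold change -0.48, SE 0.073, edgeR adjusted p = 1.6e-04 in siYAP+TAZ). Of the exonic bases of MCM2, 23.6% lie opposite exons of another gene, and the strand setting of the counting was not stated, so part of its reads may be of the other gene.
MCM4 had 5945, 6101 and 6283 normalized counts in siControl, 4634, 4757 and 4725 in siYAP+TAZ and 5658, 5866 and 5378 in siYAP. In Control it had 5579, 5773 and 6354 and in siTAZ 5776, 5978 and 6037. The siYAP+TAZ libraries lay below every other library (log2 fold change -0.38, SE 0.065, edgeR adjusted p = 4.8e-04). MCM3, MCM5, MCM6 and MCM7 had log2 fold changes of -0.38, -0.27, -0.39 and -0.38, with edgeR adjusted p of 0.0010, 0.0083, 0.026 and 0.0019. The call of MCM6 was lost in the fits without siControl 17 or 27, without siYAP+TAZ 20 or 25 or with only the groups compared, and that of MCM5 without siControl 27, while the estimates stayed negative (from -0.49 to -0.28 for MCM6 over all alternatives, and -0.20 for MCM5 without siControl 27).

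Of the 10 licensing and firing factors, 7 fell, namely ORC1, ORC6, CDC6, CDT1, MCM10, CDC45 and GINS1, and the largest decreases of all members were found among them. CDC6 (chromosome 17, 40287879 to 40304657, plus strand), which helps to load the MCM ring, had the smallest p of any member. The siControl libraries held 3432, 3455 and 3606 normalized counts of it and the siYAP+TAZ libraries 2466, 2535 and 2474. It had 3714, 3817 and 3639 in Control, 3229, 3398 and 2972 in siYAP and 3407, 3523 and 3243 in siTAZ. The 3 siYAP+TAZ values lay close together and far below those of every other group, at 71.3% of siControl (log2 fold change -0.49, SE 0.065, edgeR adjusted p = 4.5e-05).
ORC1 (chromosome 1, 52372829 to 52404423, minus strand), the largest subunit of the origin recognition complex, had 887, 871 and 834 normalized counts in siControl and 612, 572 and 658 in siYAP+TAZ. The values were 813, 816 and 806 in Control, 787, 803 and 703 in siYAP and 819.8, 820.4 and 873 in siTAZ. All siYAP+TAZ libraries were below all others, and the siYAP libraries also lay below siControl (log2 fold change -0.49, SE 0.077, edgeR adjusted p = 2.2e-04 in siYAP+TAZ).
The decreases of MCM10 (-0.53, SE 0.086, edgeR adjusted p = 2.9e-04) and ORC6 (-0.53, SE 0.11, edgeR adjusted p = 0.0033) were the largest of the 44, at 69.1% and 69.5% of siControl. CDT1 (-0.40) and CDC45 (-0.39) also fell, but the call of CDT1 was lost without siControl 17 or 27, without siYAP+TAZ 30 and with scaling by library size. The 4 GINS subunits, which form a single complex with each other, did not share a call. GINS1 fell by 0.25 on the log2 scale (edgeR adjusted p = 0.043), and its call was lost in 9 of the 14 other settings, namely when any of the 6 libraries compared was left out, with DESeq2 size factors, with scaling by library size and with only the groups compared in the fit, with estimates from -0.32 to -0.20 over the alternatives. GINS2 (-0.41), GINS3 (-0.26) and GINS4 (-0.12) did not pass, with edgeR adjusted p of 0.086, 0.13 and 0.58, and the interval of GINS2 reached from -0.74 to -0.074. The estimate of GINS4 became positive (0.021) without siYAP+TAZ 30, in which GINS4 had 767 normalized counts against 1039 and 1032 in libraries 20 and 25. Opposite-strand exons cover 23.4% of the exonic bases of GINS4 and 10.9% of those of GINS3.

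Of the clamp and its loader, 5 of 6 genes fell. RFC4 (chromosome 3, 186789880 to 186807058, minus strand), a small subunit of the loader, had 1185, 1216 and 1159 normalized counts in siControl and 859.7, 840.1 and 921 in siYAP+TAZ. Control had 1329, 1285 and 1157, siYAP 1099, 1113 and 1002 and siTAZ 1175, 1104 and 1226. Again the siYAP+TAZ libraries stood below all others (log2 fold change -0.44, SE 0.076, edgeR adjusted p = 4.8e-04).
RFC5 (chromosome 12, 118013588 to 118033130, plus strand), another small subunit, had 1065, 1108 and 1053 in siControl, 819, 844 and 942 in siYAP+TAZ, 1055, 971 and 1144 in Control, 983, 1032 and 958 in siYAP and 1100, 1036 and 1073 in siTAZ. It fell by 0.31 on the log2 scale in siYAP+TAZ (SE 0.077, edgeR adjusted p = 0.0090). All siYAP+TAZ libraries lay below all others. Another gene lies opposite 10.6% of its exonic bases. RFC2 (-0.24) and RFC3 (-0.44) fell as well. The call of RFC2 was lost with scaling by library size and when any of the 6 libraries compared but siYAP+TAZ 30 was left out, and that of RFC3 without siYAP+TAZ 20. The large subunit RFC1 had an estimate of -0.065 with a 95% interval from -0.22 to 0.085.
PCNA (chromosome 20, 5114953 to 5126626, minus strand), the clamp itself, had 4552, 4471 and 4460 normalized counts in siControl and 3931, 3827 and 3890 in siYAP+TAZ. It had 4592, 4657 and 4794 in Control, 4309, 4505 and 4380 in siYAP and 4909, 5414 and 5059 in siTAZ. The siYAP+TAZ libraries were below, and the siTAZ libraries above, every library of the other groups (log2 fold change -0.21, SE 0.060, edgeR adjusted p = 0.018 in siYAP+TAZ). The call in siYAP+TAZ was lost without siControl 17 or 22, without siYAP+TAZ 25 and with scaling by library size, with estimates from -0.27 to -0.17 over the alternatives.

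Among the polymerase and primase genes, 4 of 8 fell, and these were subunits of polymerases delta and epsilon. POLD1 (chromosome 19, 50384204 to 50418018, plus strand), the catalytic subunit of polymerase delta, had 3790, 4056 and 4525 normalized counts in siControl and 2930, 2917 and 3160 in siYAP+TAZ. The other groups had 4328, 4156 and 4273 (Control), 3545, 3550 and 3309 (siYAP) and 4020, 3726 and 3882 (siTAZ). The siYAP libraries fell between siYAP+TAZ and siControl without overlap (log2 fold change -0.46, SE 0.071, edgeR adjusted p = 2.0e-04 in siYAP+TAZ).
POLE, whose window is printed above, had 3454, 3607 and 3937 in siControl, 2668, 2675 and 2997 in siYAP+TAZ, 4067, 4190 and 3560 in Control, 3538, 3437 and 3085 in siYAP and 3608, 3603 and 3539 in siTAZ. Here siYAP overlapped siControl, and siYAP+TAZ overlapped no other group (log2 fold change -0.40, SE 0.079, edgeR adjusted p = 0.0017). POLE2 (-0.44) and POLD3 (-0.22) also fell. The call of POLE2 was lost without siControl 17, and that of POLD3 in 7 of the 14 other settings, among them each of the 6 libraries left out except siYAP+TAZ 25. POLA1 (-0.37, SE 0.16), POLA2 (-0.32, SE 0.17), PRIM1 (-0.35, SE 0.12) and POLD2 (-0.20, SE 0.12), that is the members of the polymerase alpha and primase complex and the second subunit of delta, did not pass, with edgeR adjusted p between 0.053 and 0.30. The estimates of the first 3 lay within the range of the 4 called genes. POLA2 is the member with the fewest counts, and exons of another gene on the same strand cover 16.8% of its exonic bases and 15.1% of those of PRIM1.

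Of the single-strand binding proteins, RPA2 (chromosome 1, 27891524 to 27914746, minus strand) fell in siYAP+TAZ. It had 1898, 1823 and 2028 normalized counts in siControl, 1576, 1462 and 1609 in siYAP+TAZ, 1743, 1928 and 2075 in Control, 1609, 1749 and 1618 in siYAP and 1842, 2042 and 2045 in siTAZ (log2 fold change -0.31, SE 0.078, edgeR adjusted p = 0.0093). The ranges of siYAP and siYAP+TAZ met at 1609 and both lay below siControl, and without siYAP+TAZ 25 the call of RPA2 was lost (lowest and highest estimates over the alternatives -0.34 and -0.26). RPA1 (-0.15) and RPA3 (-0.18) did not pass.
FEN1 (chromosome 11, 61792911 to 61797238, plus strand), the nuclease that trims Okazaki fragments, had 3834, 3746 and 3745 in siControl and 2829, 2964 and 2676 in siYAP+TAZ. In Control it had 4150, 3873 and 3902, in siYAP 3705, 3765 and 3184 and in siTAZ 3902, 3467 and 3591. The siYAP+TAZ libraries lay below all others (log2 fold change -0.42, SE 0.074, edgeR adjusted p = 6.2e-04). The ligase gene LIG1 had an estimate of -0.20 (edgeR adjusted p = 0.060).

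Of the genes for nucleotide supply, RRM1, RRM2 and TYMS fell and TK1 did not pass. RRM1 (chromosome 11, 4094707 to 4138932, plus strand) and RRM2 (chromosome 2, 10120698 to 10211725, plus strand) encode the large and small subunits of ribonucleotide reductase, which makes deoxynucleotides. RRM1 had 5016, 4817 and 4906 normalized counts in siControl, 3666, 3813 and 4026 in siYAP+TAZ, 4742, 4721 and 5299 in Control, 4256, 4518 and 4169 in siYAP and 4653, 4879 and 5117 in siTAZ. Both siYAP and siYAP+TAZ stood below siControl, and they did not overlap each other (log2 fold change -0.36, SE 0.068, edgeR adjusted p = 0.0012 in siYAP+TAZ).
RRM2 had 7586, 7366 and 8680 in siControl, 5640, 5737 and 7022 in siYAP+TAZ, 7538, 7959 and 8717 in Control, 6331, 6582 and 6408 in siYAP and 7216, 7029 and 8050 in siTAZ. The siYAP and siYAP+TAZ ranges overlapped here, since siYAP+TAZ 30 lay above every siYAP library (log2 fold change -0.36, SE 0.090, edgeR adjusted p = 0.0087 in siYAP+TAZ). This call was lost without siYAP+TAZ 20 or 25 or without siControl 27, with estimates from -0.46 to -0.29 over the alternatives. TYMS, thymidylate synthase, fell by 0.37 on the log2 scale (edgeR adjusted p = 0.037), but 47.9% of its exonic bases lie opposite another gene and its reads are therefore uncertain. Its call was lost without siYAP+TAZ 20 or 25, without siControl 22 or 27 and with Control as the reference. For TK1, the thymidine kinase of dividing cells, the estimate was -0.20 (edgeR adjusted p = 0.12).

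Of the 3 E2F genes among the members, 1 fell. E2F8 (chromosome 11, 19224063 to 19241620, minus strand), a repressor of the family, had 849, 855 and 941 normalized counts in siControl, 728, 758 and 762 in siYAP+TAZ, 851, 919 and 955 in Control, 809.8, 804 and 700.4 in siYAP and 941, 939 and 937 in siTAZ (log2 fold change -0.23, SE 0.078, edgeR adjusted p = 0.043 in siYAP+TAZ). The siYAP+TAZ libraries lay below siControl and within the range of siYAP. The call of E2F8 was lost when any siControl or siYAP+TAZ library was left out, with estimates between -0.26 and -0.19, with scaling by library size and with only the groups compared in the fit. E2F1, the best-known activator of S phase genes, had 4772, 3641 and 5478 in siControl and 3847, 3857 and 3095 in siYAP+TAZ. These groups overlapped, and the estimate of -0.36 (SE 0.18, edgeR adjusted p = 0.20) came with the largest spread within groups of any member (SD 0.25 on the log2 scale, against a median of 0.089 over the 44). E2F2 had an estimate of -0.22 (SE 0.14).
UHRF1 (chromosome 19, 4903080 to 4962154, plus strand) had 3911, 3879 and 4385 in siControl and 2628, 3142 and 2970 in siYAP+TAZ. Control had 4132, 4067 and 4353, siYAP 3563, 3452 and 3256 and siTAZ 4194, 3784 and 4063. The siYAP+TAZ libraries lay lowest, then siYAP, and siTAZ overlapped siControl (log2 fold change -0.48, SE 0.077, edgeR adjusted p = 2.7e-04 in siYAP+TAZ). CLSPN, which encodes the fork protein claspin of the replication checkpoint, fell by 0.39 on the log2 scale (edgeR adjusted p = 8.9e-04).

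**Figure D2:**
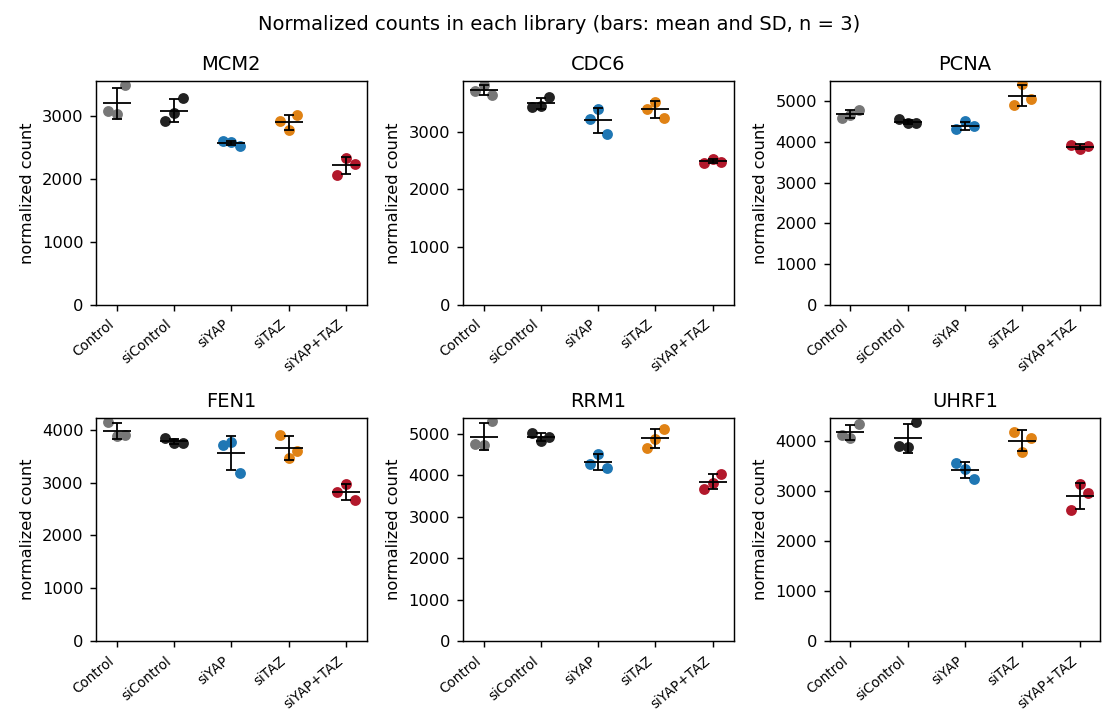
Normalized counts of 6 members in each library (points), with the mean and SD of each group (n = 3, bars), on axes that start at 0. In each panel the siYAP+TAZ points lie below all others, and for PCNA the siTAZ points lie above all others.

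**Figure D3:**
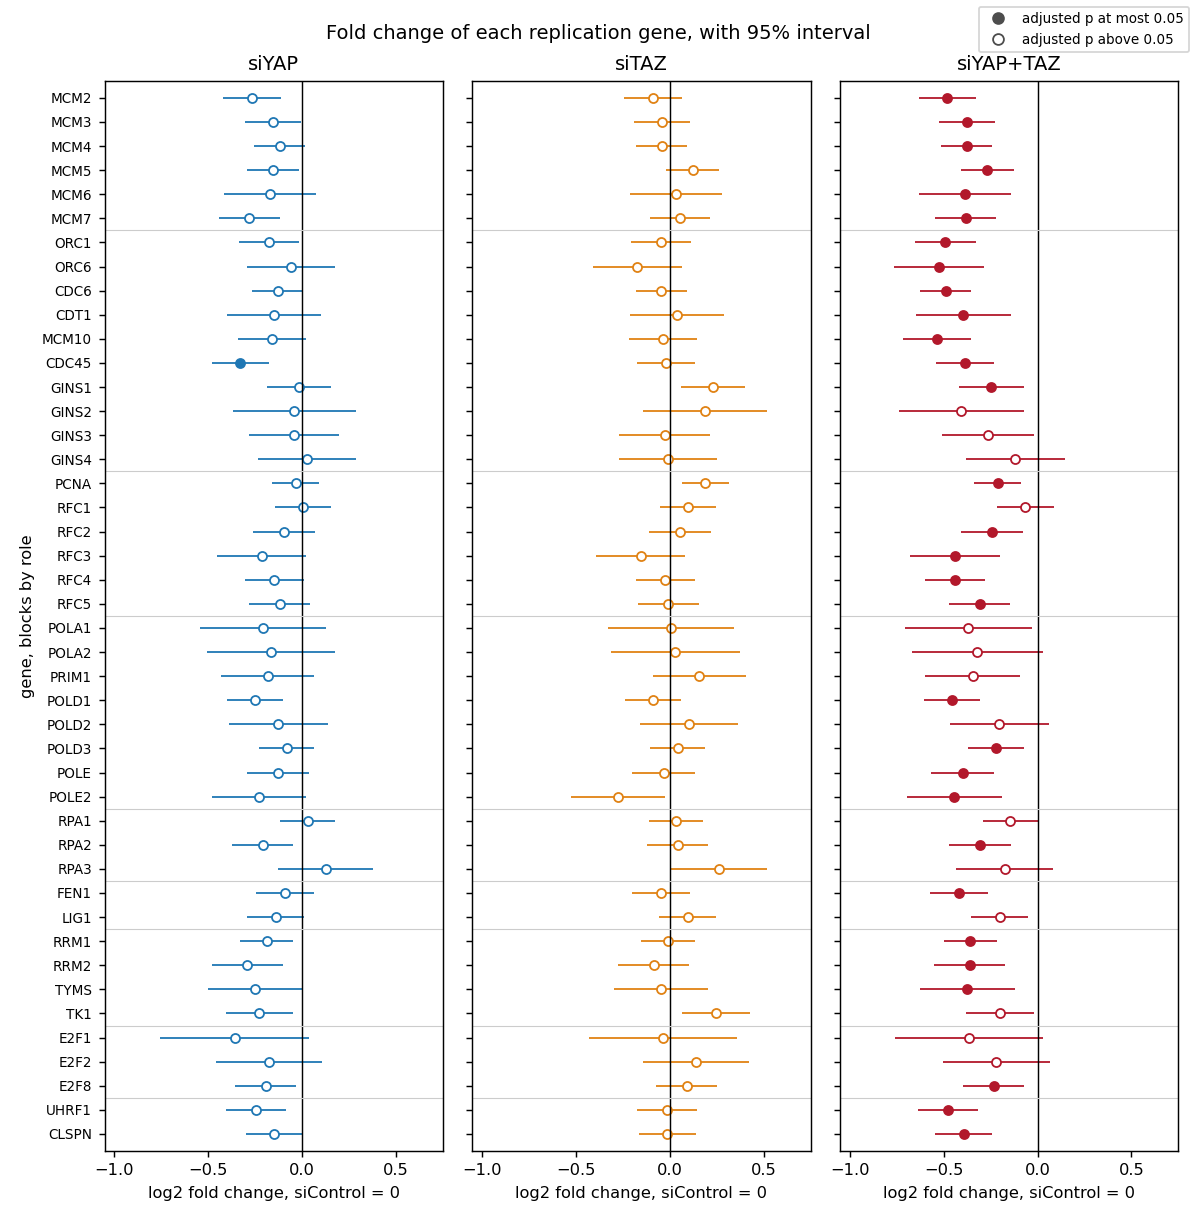
Log2 fold change against siControl of the 44 genes (rows, blocks by role) in siYAP, siTAZ and siYAP+TAZ, with 95% intervals and filled points at an edgeR adjusted p of at most 0.05. Filled points number 1 in siYAP (CDC45), 0 in siTAZ and 30 in siYAP+TAZ, where every point lies left of 0.

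The size of the change was also set beside the E2F-type words. The 15 members with a word had a median log2 fold change of -0.38 in siYAP+TAZ (range -0.48 to -0.20), and 9 of them were called. The 22 members with a window but no word had a median of -0.37 (range -0.53 to -0.065), and 16 were called. Of the 3 printed examples, UHRF1 had one of the larger decreases and PCNA one of the smaller.

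In siYAP alone most members had lower estimates, and CDC45 was the member that fell at the threshold. CDC45, which holds the MCM ring and GINS together, had 1543, 1561 and 1593 normalized counts in siControl and 1252, 1256 and 1237 in siYAP. It had 1178, 1172 and 1237 in siYAP+TAZ, 1543, 1508 and 1580 in siTAZ and 1597, 1484 and 1842 in Control. The siYAP and siYAP+TAZ libraries formed a low group without overlap with the others (log2 fold change -0.33, SE 0.073, edgeR adjusted p = 0.039 in siYAP). This 1 call among 44 stands beside 0.456% of all genes called lower in siYAP, and it was lost when any of the 6 libraries compared was left out, with estimates between -0.33 and -0.31, and with only the groups compared in the fit. DESeq2 called 3 members lower in siYAP, and edgeR called 8 lower with a block for the run of library numbers (16 to 20, 21 to 25 and 26 to 30), which the labels do not name as experiments. The 0.456% belongs to the edgeR fit by group, and no share of all genes is given for DESeq2 or the block. Of the 44, 40 had a negative estimate in siYAP (all genes 49.5%), with a median of -0.15 against 0.0025 over all genes, and 13 had an unadjusted p under 0.05, all of them lower, where 5.76% of all genes were lower at that p. In 21 members (47.7%) all siYAP libraries lay below all siControl libraries, against 9.86% of all genes. The estimates nearest to that of CDC45 were those of E2F1 (-0.36, SE 0.18), RRM2 (-0.29, SE 0.090), MCM7 (-0.28, SE 0.077) and MCM2 (-0.26, SE 0.073), none past the threshold (edgeR adjusted p from 0.097 to 0.48).

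In siTAZ no member passed the threshold with edgeR fitted by group, where 0.695% of all genes were called lower, and DESeq2 called 1, which was higher. An unadjusted p under 0.05 was found for 5 members (11.4%), a smaller share than the 16% of all genes. With the run of library numbers as a block, edgeR called 4, of which 1 was lower. For DESeq2 and the block no share of all genes called is given, since the 0.695% belongs to the edgeR fit by group. The estimates fell on both sides of 0, with 23 of 44 negative and a median of -0.0083. In 1 member, ORC6, all siTAZ libraries lay below all siControl libraries, against 10.2% of all genes. The unadjusted 5 were PCNA (0.19), TK1 (0.25), GINS1 (0.23) and RPA3 (0.26) with positive estimates and POLE2 (-0.28) with a negative estimate (edgeR adjusted p from 0.10 to 0.30). Without siTAZ 19, 1 member was called lower, and without siControl 27, 1 was called higher. For CDC6 the 95% interval in siTAZ was from -0.18 to 0.091 and for UHRF1 from -0.18 to 0.15, and neither holds the estimate of the same gene in siYAP+TAZ. The interval of POLE2, from -0.53 to -0.023, did hold its siYAP+TAZ estimate of -0.44.
siYAP and siTAZ were also set against each other, a comparison added after the values had been seen. TK1 was lower in siYAP than in siTAZ (log2 fold change -0.47, SE 0.086, edgeR adjusted p = 0.021), with 4923, 5482 and 5347 normalized counts in siYAP and 6937, 7484 and 7417 in siTAZ, and 5807, 5536 and 7071 in siControl. It was the 1 member called, where 0.472% of all genes were called lower in the same fit. The call was lost without siYAP 18 (-0.43) or 28 (-0.48), without siTAZ 24 (-0.44) or 29 (-0.46) and with only the groups compared in the fit. The number called was 2 without siTAZ 19, 6 with DESeq2 and 14 with the run as a block. No share of all genes is given for these other settings. The median over members was -0.18, with 41 of 44 estimates negative.

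The co-knockdown was then compared with each single knockdown. Against siTAZ, 30 members were lower in siYAP+TAZ, where 2.38% of all genes were called lower, with a median of -0.36. The smallest p were those of CDC6 (-0.44), PCNA (-0.40) and UHRF1 (-0.46). The number was 18 without siYAP+TAZ 20 and 19 without siYAP+TAZ 25, siTAZ 24 or siTAZ 29.
Against siYAP, 7 members were lower in siYAP+TAZ, where 1.7% of all genes were called lower, and the median was -0.18. They were CDC6 (-0.36, SE 0.065, edgeR adjusted p = 0.0027), FEN1 (-0.33), MCM10 (-0.37), ORC1 (-0.32), ORC6 (-0.47), MCM4 (-0.26) and RFC4 (-0.29). Licensing and firing factors made up 4 of the 7 and 10 of the 44 members, and the difference between these shares was not tested. CDC6 was the only one of the 7 that passed under all 13 alternatives, and the number of calls fell to 1 without siYAP 18 or 23, to 2 without siYAP+TAZ 20 and to 3 without siYAP+TAZ 25. It rose to 11 with DESeq2, to 11 with the filterByExpr filter on low counts and to 20 with the run as a block. The 1.7% of all genes belongs to the edgeR fit by group over all genes and libraries, and no such share is given for these other settings. In siYAP 23 YAP1 RNA was highest among the siYAP libraries, and the part of this difference in the result was not tested. These comparisons use the same siYAP+TAZ libraries as that with siControl and are not independent of it.

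**Figure D4:**
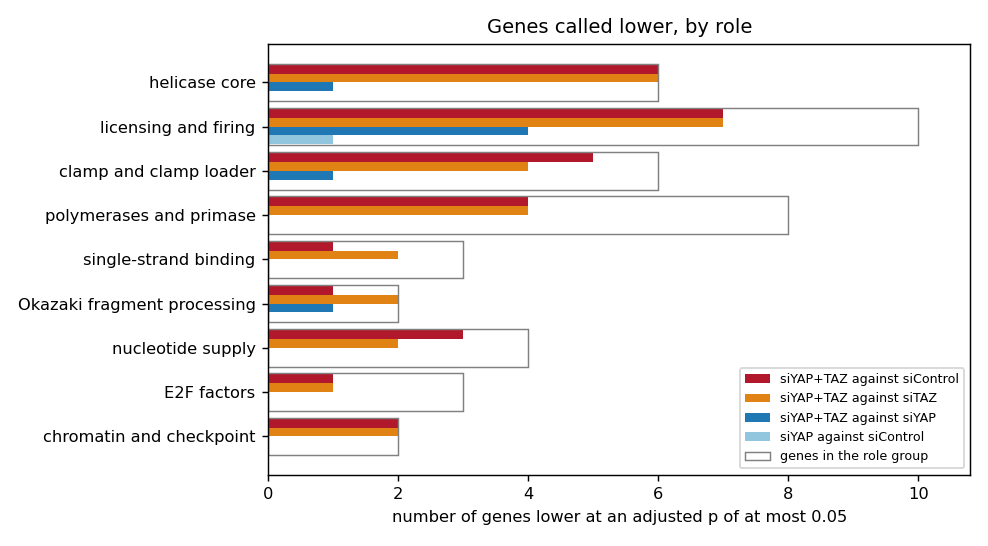
Number of genes called lower at an edgeR adjusted p of at most 0.05 (coloured bars) in each role group, with the number of genes in the group as an open bar. In the helicase core, for example, 6 of 6 genes were called against siControl, 6 against siTAZ and 1 against siYAP.

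Whether the change in siYAP+TAZ differed from the sum of the single changes on the log2 scale was tested with the interaction of siYAP and siTAZ. No member passed with edgeR fitted by group, where 0.0106% of all genes did, although 14 members had an unadjusted p under 0.05, all with negative estimates, where 2.74% of all genes were lower at that p. DESeq2 called 1 member, and edgeR with the run as a block called 3, all lower, but no share of all genes is given for these fits. The median over members was -0.19, against -0.0043 over all genes. The smallest p were those of PCNA (-0.37, SE 0.084, edgeR adjusted p = 0.34) and GINS1 (-0.46, SE 0.12, edgeR adjusted p = 0.39). GINS1 (chromosome 20, 25391008 to 25452700, plus strand) had 799, 776 and 825 normalized counts in siControl, 801, 833 and 742 in siYAP, 914, 1032 and 870.2 in siTAZ, 659.9, 653 and 710.3 in siYAP+TAZ and 896, 835 and 803 in Control. The group mean of both genes was highest in siTAZ and lowest in siYAP+TAZ.

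Transfection with the non-targeting pool was checked in the same way. Between siControl and the untransfected Control no member was called with edgeR or DESeq2, where 0% of all genes were called with edgeR. Of the members, 0 had an unadjusted p under 0.05, near the 2.11% of all genes. The estimates lay between -0.12 and 0.090. With Control as the reference, 32 members were lower in siYAP+TAZ, where 9.07% of all genes were called lower, and the median was -0.35.
The libraries differed among themselves beyond the groups. In 30 of the 44 members libraries 26 to 30 were higher on average than libraries 16 to 25, in 8 members by at least 0.2 on the log2 scale in either direction. The labels do not say whether consecutive numbers mark an experiment. Relative to the siControl mean, the median member stood at -0.41, -0.36 and -0.28 in siYAP+TAZ 20, 25 and 30, at -0.13, -0.11 and -0.23 in siYAP 18, 23 and 28, at -0.015, -0.034 and 0.042 in siTAZ 19, 24 and 29, and at -0.038, -0.025 and 0.069 in siControl 17, 22 and 27. Within each run of consecutive numbers (16 to 20, 21 to 25 and 26 to 30), the median difference of siYAP+TAZ from the siControl library of the run was -0.37, -0.33 and -0.36. There, 41 members were lower in siYAP+TAZ in all 3 runs (28.7% of all genes), 30 in siYAP (21.6%) and 6 in siTAZ (21.3%). The differences of siYAP were -0.098, -0.067 and -0.28, so the run of libraries 26 to 30 gave the largest decrease in siYAP.

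**Figure D5:**
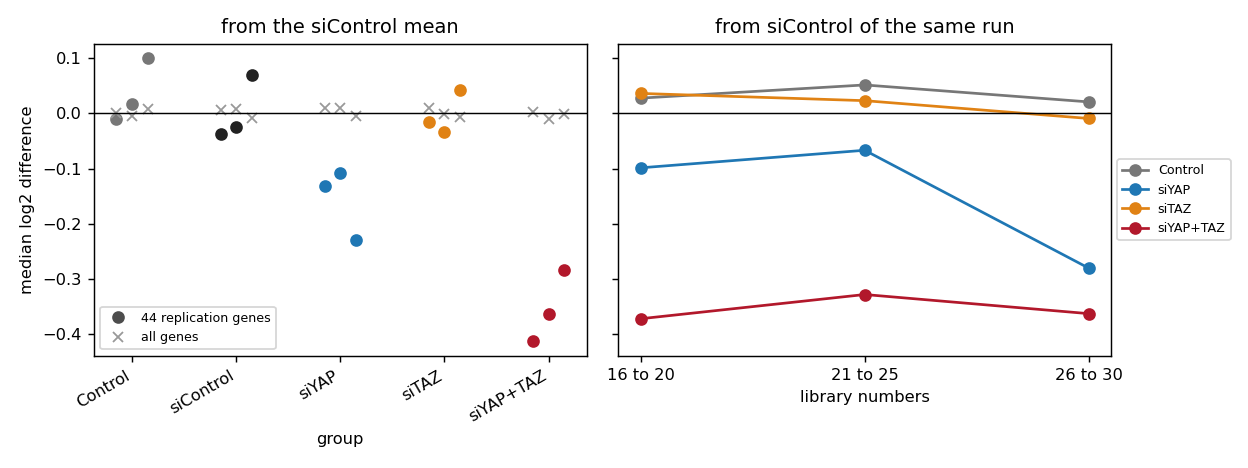
Median log2 difference over the 44 genes (filled points) and over all genes (crosses) from the siControl mean in each library (left), and over the 44 genes from the siControl library of the same run of library numbers (right). The siYAP+TAZ values lie between -0.41 and -0.28 on the left and between -0.37 and -0.33 on the right, below all others.

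Other genes of the pathway, which are not members, were listed with earlier results of these data known. Of these 32 genes, 22 fell and 1 rose in siYAP+TAZ against siControl, where 8.39% of all genes were called lower and 9.97% higher, and their median was -0.31. The genes that fell include GMNN (-0.48), the inhibitor of CDT1, TIPIN (-0.71), which protects stalled forks, HELLS (-0.45), a chromatin remodeller, and CHAF1B (-0.47), a subunit of the chromatin assembly factor. The gene that rose was POLD4 (0.96, edgeR adjusted p = 3.1e-05), the smallest subunit of polymerase delta, which also rose in siYAP (0.53, edgeR adjusted p = 0.046). None of the 32 was called lower in siYAP or siTAZ, where 0.456% and 0.695% of all genes were, so that these counts of 0 do not set the list apart from the background.
Of 10 other E2F and pocket protein genes, 5 fell in siYAP+TAZ (E2F3, E2F4, E2F5, TFDP1 and RBL1, from -0.45 to -0.26) and E2F7 rose (0.28, edgeR adjusted p = 0.048). Of all genes, 8.39% were called lower and 9.97% higher there. Against Control, 2 of the 10 were called lower and 0 higher, where 1711 of all 18858 genes were called lower and 1952 higher. Counts this small do not set the list apart from the background. E2F5 also fell in siYAP (-0.70) and E2F7 also rose in siTAZ (0.37).

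In siControl the levels of the members per kilobase of exon spanned a wide range. TK1 (3327 normalized counts per kilobase), PCNA (3203), MCM7 (2896) and MCM3 (2844) were highest, and E2F2 (63.2) and POLA2 (9.74) were lowest. These levels use all exons annotated in GENCODE release 44 as the length, so a gene with many long transcript models is given a low level.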

How the data were processed

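Polyadenylated RNA of MDA-MB-231 cells was sequenced in 15 libraries, 3 per group, and groups were taken from the sample names. The authors trimmed reads with cutadapt in the UTAP pipeline, aligned them with STAR 2.4.2a to GRCh38 (GENCODE release 34), counted them with STAR and deposited raw counts per gene, which are the values used here. The table also holds 30 columns of DESeq2-normalized and rlog values, and the fold changes and p-values of the authors' comparisons, none of which were used. The strand setting of the counting is not given in the sources used here.
Counts were scaled by TMM (factors 0.943 to 1.03) and tested by the robust quasi-likelihood F-test of edgeR 4.0.16 (R 4.3.3; a coefficient per group, all libraries), with p-values adjusted by Benjamini-Hochberg over 18858 genes. All genes were kept, since each had at least 6 reads in some library. Normalized counts are counts divided by the TMM-scaled library size relative to the mean library. Intervals are 95%. The scripts were first tested on simulated counts. Replicates of a group differed by more than sampling noise (chi-square per degree of freedom from 6.69 to 42.3), so none was merged. The study states 3 independent sets of experiments but not which libraries form a set. If libraries of a group share a culture, p-values measure technical spread only.
The members and lists were chosen with earlier results of these data known. Values in every library are given for the 2 genes with the smallest p in siYAP+TAZ in each role group (1 in groups of 2 or 3) and the 2 with the smallest interaction p, and CDC45, TK1, E2F1 and the genes named from the 2 lists of other pathway genes were added after their values were seen. Alternatives were DESeq2 1.42.0 set as in the study, its size factors, library size, 2 stricter filters, only the groups compared, a block for the run of library numbers, Control as the reference, and each library of the groups compared left out. Coordinates and exon overlaps are from GENCODE release 44, and promoter windows from RefSeq (GRCh38.p14).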

Additional observations from a re-analysis of the deposited data

Results flagged for a closer look

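The effect of siYAP on TK1 differed from that of siTAZ by -0.47 on the log2 scale (edgeR quasi-likelihood test of the difference, adjusted p = 0.021, 3 libraries per group). All 3 siYAP libraries lay below all 3 siTAZ libraries, with estimates against siControl of -0.23 in siYAP and 0.25 in siTAZ. Neither estimate passed the threshold against siControl (edgeR adjusted p = 0.27 in siYAP and 0.15 in siTAZ). The call between siYAP and siTAZ was lost in 5 of 13 alternatives. The comparison was added after the values had been seen.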

How the results depend on the processing

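The 30 members lower in siYAP+TAZ than in siControl numbered 24 to 36 under the other settings and 21 to 29 with a library left out. The median log2 fold change there was between -0.38 and -0.29 with a library left out, and in siTAZ between -0.016 and 0.050, the last without siControl 27. The estimate of GINS4 in siYAP+TAZ lay between -0.19 and 0.021 with a library left out, and reversed (0.021) without siYAP+TAZ 30.
Counts of called members moved by over 1.5 times in several comparisons. With DESeq2 they were 3 in siYAP, 1 in siTAZ, 11 in siYAP+TAZ against siYAP, 1 in the interaction and 6 in siYAP against siTAZ. With a block for the runs of library numbers 16 to 20, 21 to 25 and 26 to 30 they were 8, 4 (1 of them lower), 20, 3 and 14. The labels give the groups no shared replicate numbers. Deviations of libraries of the same run correlated above 0.1 in 26 of 30 pairs (lowest -0.051, median 0.39). Among pairs of different runs and different groups, 16 of 60 did (median -0.32). The pairing is thus a hint from the data and not part of the design. With only the groups compared in the fit, the counts were 0 in siYAP, 4 in siYAP+TAZ against siYAP and 0 in siYAP against siTAZ. With filterByExpr, 11 were called in siYAP+TAZ against siYAP, and with Control as the reference 4 in siYAP. With a library left out, the counts were 0 to 0 in siYAP, 0 to 1 in siTAZ, 1 to 9 in siYAP+TAZ against siYAP, 18 to 29 in siYAP+TAZ against siTAZ and 0 to 2 in siYAP against siTAZ. The cause of these shifts was not tested, except that leaving out a library leaves fewer samples. Shares of all genes called under these settings are not given, so the counts have no background beside them. POLA2 was the least deeply counted member, with about 109 normalized counts on average.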
